A study of Mus musculus with 12 samples.

Results

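To describe what thymi lacking Dnmt1 shared irrespective of the NPM-ALK oncogene, the 6 Dnmt1-deleted thymus libraries of the study were taken as one side and set against its 3 control thymus libraries, so that 9 of the 12 libraries entered. The deleted side held 3 mice carrying floxed Dnmt1 alleles and the Cd4-Cre recombinase (KO; Dnmt1 fl/fl, Cd4-Cre; aged 20, 20 and 21 weeks) and 3 mice that carried, in addition, a human NPM-ALK transgene driven by the Cd4 enhancer and promoter (ALKKO; 25, 21 and 19 weeks). The control side held 3 mice with floxed Dnmt1 alleles and no Cre (Ctrl; 25, 21 and 20 weeks). Floxed Dnmt1 was thus common to all 9 mice, deletion and Cre presence cannot be told apart, and no thymus carried NPM-ALK with intact Dnmt1, since the 3 remaining libraries (ALK; NPM-ALK+, 24, 22 and 31 weeks) were tumors, 1 of them from an older mouse than any of the 9 used. Cre and the transgene both act in T-lineage cells, whereas RNA came from homogenized thymic tissue of mice on a mixed strain background. Members were genes for which all 6 deleted libraries lay above the highest or below the lowest Ctrl library in normalised CPM (the counts of a gene scaled to a common library size), and 825 of 15956 genes tested met this rule (5.17%).

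DNMT1 is the maintenance methyltransferase: it copies the methylation of CpG dinucleotides onto the new strand after replication, together with its partner UHRF1, which binds hemimethylated DNA. Where it is missing, methylation is diluted as cells divide. Germline genes, the silent X chromosome, imprinted genes and retroelements are textbook examples of sequences kept silent by DNA methylation in somatic cells. In the thymus, Cd4-driven Cre acts from about the stage at which thymocytes carry both CD4 and CD8, and few divisions follow.

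Total counts on genes ranged from 12739959 to 18864327 over the 9 libraries, and the Ctrl libraries (17957289 to 18864327) were among the deepest. Double-positive thymocyte markers summed to between 8752 and 11290 CPM in 8 of the 9 libraries but to 3520 CPM in KO2, the single library from a female. KO2 was also the highest library for B cell markers (6284 CPM against 1114 to 1376 in Ctrl) and macrophage and granulocyte markers (3255 CPM against 924 to 1089.8 in Ctrl), and the lowest for thymic epithelial markers (310.5 CPM against 2615 to 2766 in Ctrl). KO3 held heart and skeletal muscle markers at 6118 CPM, against 13.2 to 35.1 CPM in the other 8 libraries. In such tissue RNA, fewer cells of a type and less RNA per cell cannot be told apart.

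**Figure D1:**
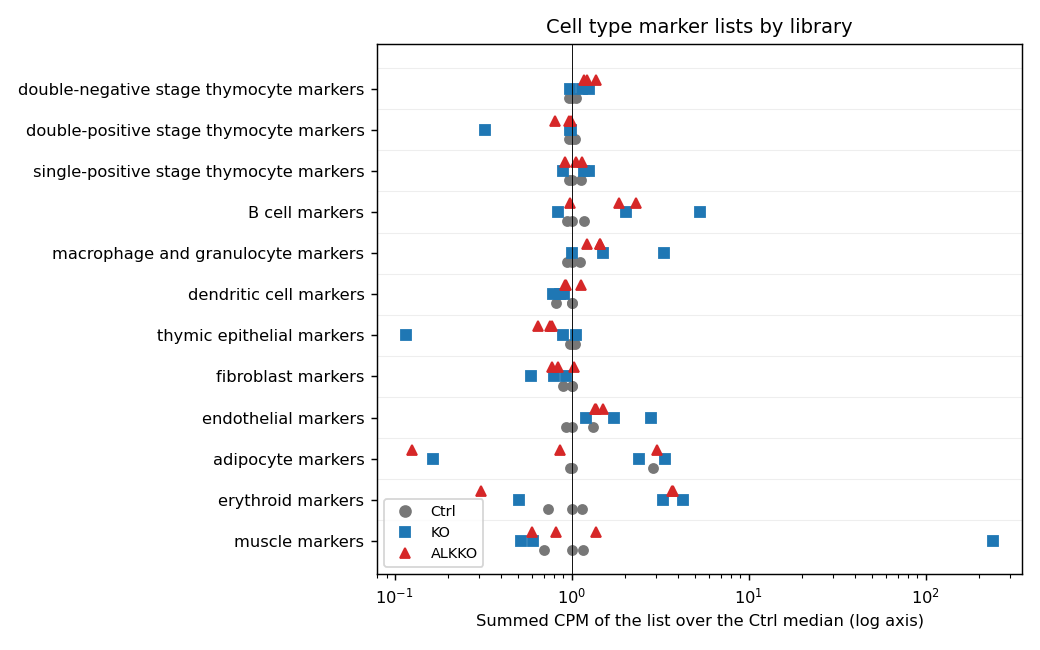
Summed CPM of each cell type marker list in each library, divided by the median of the 3 Ctrl libraries, on a log axis. KO2 stands apart for double-positive, thymic epithelial, B cell and macrophage markers, and KO3 for muscle markers. Thy1 (Ctrl mean 2264 CPM) makes up most of the fibroblast sum (Ctrl median 2838 CPM). Ccr9 (Ctrl mean 834 CPM) makes up most of the dendritic cell sum (Ctrl median 1214 CPM), so these 2 sums largely follow single genes.

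Dnmt1 itself was lower in every deleted library. Its level was 449.8, 493 and 405 CPM in Ctrl, 243, 209 and 247 CPM in KO, and 207, 224 and 247 CPM in ALKKO. Both deleted groups therefore sat at about the same level, with means of 233 ± 20.8 and 226 ± 19.9 CPM (SD, n = 3 each) against 449 ± 44.1 CPM in Ctrl. The log2 fold change was -0.97 ± 0.10 (SE), with an adjusted p of 0.0144 by the quasi-likelihood test of edgeR (Benjamini-Hochberg) and an exact two-sided permutation p of 0.0238, the smallest that 84 splits of 3 against 6 allow. Every gene with all 6 deleted libraries on one side of Ctrl gets this permutation p, so it only restates the rule for members. Counts were taken over the whole gene, so they do not separate the floxed exons from the rest of the transcript.

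At an adjusted p under 0.05 and more than 2-fold, 23 genes rose (0.144% of the 15956 tested) and 1 gene fell (0.00627%) in edgeR. DESeq2 called 96 genes higher and 15 lower, an edgeR fit of all 12 libraries 8 and 1, and a fit with the replicate number as a block 0 and 0. All 6 deleted libraries lay above Ctrl for 444 genes (2.78%) and below Ctrl for 381 genes (2.39%), of which 21 (0.132% of genes tested) and 1 were among those calls. The 444 genes had a median log2 fold change of 0.70 and the 381 genes one of -0.35, against 0.04 over all genes tested. Without the adjustment, 1328 genes (8.32%) had a p under 0.05. At least 2-fold clear of the nearest Ctrl library lay 49 genes above and 2 below, Klra9 and Styk1. In 33 of the 49, no Ctrl library had more than 3 counts. Those genes passed the filter on low counts only through the deleted side, so they could not have fallen. The rule sits on a continuum. Tmem167, the gene just inside on the upper side, had 69.0 CPM in both its highest Ctrl library and its lowest deleted library, and Rassf4, just outside, had 34.9 CPM in both.

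The level in Ctrl differed between the directions. Of the 49 tested genes with a Ctrl mean of up to 0.1 CPM, 33 lay above and 0 below, whereas of the 9974 genes with a Ctrl mean over 10 CPM, 186 lay above and 311 below. Genes silent in Ctrl pass the filter on low counts only through the deleted side, so they had to be higher: 3 of the 23 genes that rose would have passed on the Ctrl libraries alone, namely Noct, Gramd1c and Gzma. For 16 of the 21 genes that rose with all 6 libraries above Ctrl, no Ctrl library had more than 3 counts, and 6 had none at all.

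**Figure D2:**
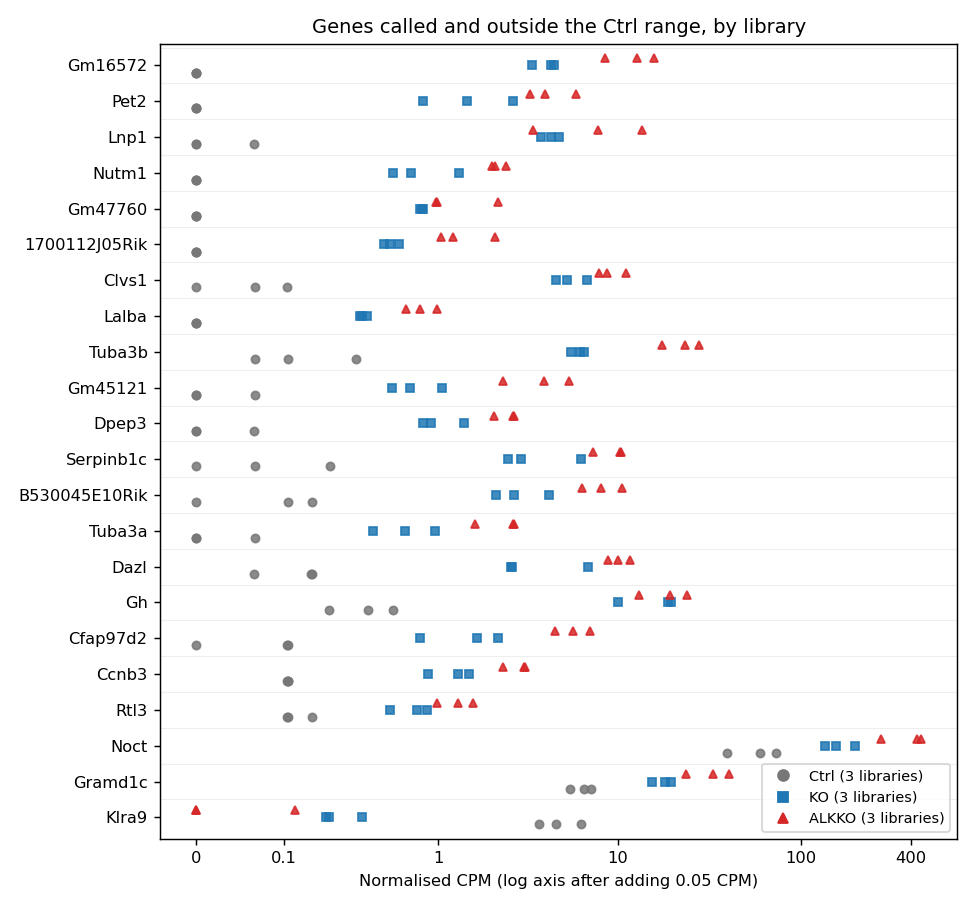
Normalised CPM of the 22 genes that were called and lay outside the Ctrl range, 1 point per library, on a log axis after adding 0.05 CPM. For the 21 genes that rose, all KO and ALKKO points lie to the right of the Ctrl points, and Klra9 shows the opposite order.

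Some listed germline genes were among the genes that rose. Of 56 listed germline and meiosis genes, 30 were expressed enough to be tested, 5 rose (Dazl, Tuba3a, Tuba3b, Dpep3 and Pet2), 0 fell, and 10 lay above Ctrl in all 6 deleted libraries. These are 16.7% and 33.3% of the members tested, where 0.144% and 2.78% of all genes did so. Their median log2 fold change was 0.89, beside 0.04 over all genes. Only 19 of the 30 would have passed the filter on the Ctrl libraries alone, whereas 95.9% of all genes tested would have. None of the 5 that rose was among these 19, and of the 10 above Ctrl only Gpat2 and Piwil2 were. Members outside the 19 entered through counts on the deleted side, so they had to be higher. The shares above are therefore unlike those of all genes and do not show an excess of germline genes. The list was also written with earlier results of these data known, so its direction is not independent evidence. The summed CPM of all 56 listed genes did not separate the sides, at 379.6 to 435.8 CPM in Ctrl, 165.5 to 465.5 in KO and 332.5 to 579.7 in ALKKO. Tuba3b, the highest of the 5 that rose, averaged 0.161 CPM in Ctrl and 14.5 CPM in the deleted libraries. The sum thus rests mostly on other members and could not show the 5 rises.

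The sequences before the start of 2 of the genes that rose are shown because CpG dinucleotides are what DNMT1 acts on. Each is the 250 bases before the RefSeq start site on GRCm38.p6, 5′ to 3′ on the gene's strand, with every CG in capitals: Dazl (chr17:50293621-50293870, minus strand) and Tuba3a (chr6:125286082-125286331, minus strand). In the GENCODE M21 gene model, 16 bases of the first stretch and 0 of the second lie inside the gene.
Dazl: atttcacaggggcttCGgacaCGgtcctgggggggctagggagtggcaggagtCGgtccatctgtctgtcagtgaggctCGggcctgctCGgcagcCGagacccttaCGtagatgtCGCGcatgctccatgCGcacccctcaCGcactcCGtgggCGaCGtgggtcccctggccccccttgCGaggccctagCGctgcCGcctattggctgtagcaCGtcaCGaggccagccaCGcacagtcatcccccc
Tuba3a: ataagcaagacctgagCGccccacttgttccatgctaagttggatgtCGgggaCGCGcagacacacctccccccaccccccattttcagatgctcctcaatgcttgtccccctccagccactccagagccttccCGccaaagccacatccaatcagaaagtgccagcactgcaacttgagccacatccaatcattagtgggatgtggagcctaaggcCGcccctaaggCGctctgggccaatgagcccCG
Dazl has 20 CG in this stretch, a number that 17.9% of the 32851 RefSeq promoters of the same length reach. Tuba3a has 8, which 43.0% of promoters reach. CG reads the same on both strands. Methylation was not measured in these libraries. A promoter was found for 16 of the 24 called genes and for 73.7% of all genes tested, too few for a comparison of CG content between sets.

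Dazl, an RNA-binding protein required for germ cell development, was at 0.0535, 0.163 and 0.164 CPM in Ctrl. It reached 2.57, 6.81 and 2.59 CPM in KO and 8.83, 11.7 and 10.01 CPM in ALKKO. Neither deleted group overlapped Ctrl, and the 3 ALKKO libraries were above the 3 KO libraries. The pooled log2 fold change was 5.57 ± 0.57 (SE, edgeR adjusted p = 0.0144). Tuba3b, a testis-type alpha-tubulin, went from 0.321, 0.0542 and 0.109 CPM in Ctrl to 5.52, 6.20 and 6.48 CPM in KO and 23.4, 27.8 and 17.5 CPM in ALKKO, a log2 fold change of 6.12 ± 0.50 (SE, edgeR adjusted p = 0.00672). Tuba3a lay lower, at 0.41 to 0.961 CPM in KO, against 1.61 to 2.67 CPM in ALKKO, with 1 count over the 3 Ctrl libraries (edgeR adjusted p = 0.0397). Reads shared by these paralogous tubulin genes may be split or dropped in counting, so their separate levels are uncertain. Dpep3, a testis membrane dipeptidase, also had 1 count over Ctrl and 0.819 to 2.67 CPM in the deleted libraries, a ratio of 97.7 in summed counts with a 95% exact counting interval of 17.3 to 3882 (edgeR adjusted p = 0.0201). Pet2, on the X chromosome, was at 0 in all 3 Ctrl libraries and at 0.819 to 5.88 CPM in the deleted ones, at least 18.5-fold higher than 3 counts per Ctrl library.

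The germline members that lay above Ctrl without passing the edgeR test were Syce1, Gpat2, Piwil2, Tex19.1 and Tex19.2. In DESeq2 4 of them passed, with an adjusted p of 1.01e-05 for Gpat2, 7.24e-05 for Syce1, 0.0231 for Tex19.2 and 0.0414 for Tex19.1, whereas Piwil2 did not (0.32). Syce1, a component of the synaptonemal complex that joins chromosomes in meiosis, was at 0.107, 0.217 and 0.109 CPM in Ctrl, 0.59, 1.57 and 1.91 CPM in KO and 2.7, 2.0 and 2.71 CPM in ALKKO (edgeR adjusted p = 0.0598). Piwil2, a PIWI protein that binds small RNAs directed at transposons, had 0.491 to 0.596 CPM in Ctrl, against 0.848 to 1.49 CPM in the deleted libraries (edgeR adjusted p = 0.502). The remaining 26 listed genes had too few counts to test.

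Genes outside the germline list rose as clearly. Gh, growth hormone, made mainly by the pituitary, was at 0.214, 0.542 and 0.382 CPM in Ctrl, at 18.9, 9.96 and 19.5 CPM in KO and at 23.9, 13.1 and 19.4 CPM in ALKKO. The KO and ALKKO libraries overlapped and all lay far above Ctrl, with a log2 fold change of 5.49 ± 0.45 (SE, edgeR adjusted p = 0.00672). Clvs1, a lipid-binding clavesin known from neurons, had 3 counts over the Ctrl libraries and 4.57 to 11.1 CPM in the deleted ones, a ratio of 137 in summed counts with a 95% exact counting interval of 46.6 to 665 (edgeR adjusted p = 0.00672). Gm16572, an antisense RNA lying within Med6, was at 0 in Ctrl, at 4.29, 4.45 and 3.34 CPM in KO and at 15.8, 12.8 and 8.46 CPM in ALKKO, at least 50.5-fold higher (edgeR adjusted p = 0.00672). Med6, its opposite-strand partner, showed no such pattern, with 28.1 to 35.8 CPM in Ctrl, against 24.0 to 34.0 CPM in the deleted libraries.

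Lnp1, known as a fusion partner of NUP98 in leukemia, had 1 count over Ctrl, 3.75, 4.72 and 4.30 CPM in KO and 13.5, 7.75 and 3.42 CPM in ALKKO (edgeR adjusted p = 0.0157). Ccnb3, an X-linked cyclin of meiosis, had 0.107 to 0.109 CPM in Ctrl, against 0.873 to 3.07 CPM in the deleted libraries, a log2 fold change of 4.01 ± 0.38 (SE, edgeR adjusted p = 0.0112). Nutm1, normally expressed in testis, was at 0 in Ctrl and at 0.546 to 2.42 CPM in the deleted libraries. Serpinb1c, a serine protease inhibitor, had up to 0.218 CPM in Ctrl, against 2.47 to 10.4 CPM in the deleted libraries. Of the 23 genes that rose, 5 were long noncoding RNAs, among them B530045E10Rik, which had up to 0.164 CPM in Ctrl, against 2.12 to 10.5 CPM in the deleted libraries. Cfap97d2, Gm45121, Gm47760, 1700112J05Rik, Lalba and Rtl3 complete the set, each with up to 0.164 CPM in Ctrl, against 0.341 to 7.03 CPM in the deleted libraries.

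Noct and Gramd1c differed from these in that they were expressed in Ctrl. Noct, nocturnin, a circadian dinucleotide phosphatase, was at 60.4, 73.6 and 39.7 CPM in Ctrl, 198, 136 and 155 CPM in KO and 456, 432 and 277 CPM in ALKKO. The means were 57.9 ± 17.1, 163 ± 31.7 and 388 ± 97.7 CPM (SD, n = 3 each), in 3 steps that did not overlap. The pooled log2 fold change was 2.12 ± 0.26 (SE, edgeR adjusted p = 0.0293). Gramd1c, a cholesterol transfer protein, had 6.47, 5.48 and 7.14 CPM in Ctrl, 18.0, 19.6 and 15.4 CPM in KO and 40.8, 33.4 and 23.7 CPM in ALKKO (log2 fold change 1.91 ± 0.22, edgeR adjusted p = 0.0201). Among genes singled out after their values were seen, Gsdme, a pore-forming gasdermin, was at 0.705 to 1.64 CPM in Ctrl, 3.93 to 7.24 CPM in KO, against 8.46 to 13.9 CPM in ALKKO (edgeR adjusted p = 0.0543).

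The transgene could be estimated only within the deleted side. In ALKKO against KO, 4 genes were called, all higher (0.0251% of genes tested): Alk, Gzma, Lrrc66 and 5830411N06Rik. Alk and Gzma, a granzyme of cytotoxic cells, were also the 2 pooled calls whose KO libraries overlapped Ctrl. Gzma was at 45.3, 59.4 and 48.5 CPM in Ctrl, 54.4, 43.7 and 58.2 CPM in KO and 382, 342 and 263 CPM in ALKKO. Reads on Alk averaged 0.235 CPM in Ctrl, 0.221 CPM in KO and 53.6 CPM in ALKKO, and how completely reads of the human fusion align to the mouse gene was not tested. The pooled values of these 2 genes are therefore means over unlike groups.

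The 2 deleted groups also ranked in one order for some members, mostly among the strongest rises. All 3 ALKKO libraries were above all 3 KO libraries for 651 of the genes tested (4.08%), for 71 of the 444 genes above Ctrl (16%) and for 35 of the 49 genes at least 2-fold above Ctrl. The reverse order held for 355 genes tested (2.22%), 9 of the 444 and 0 of the 49. For 364 of the 444 (82%) the 2 groups overlapped, and the median log2 fold change of ALKKO minus KO over the 444 was -0.009. Of the 381 genes below Ctrl, 13 had ALKKO above KO and 13 the reverse. Of the 23 genes that rose, 21 had ALKKO above KO, and Gh and Lnp1 overlapped. None of these but Alk and Gzma passed the test of ALKKO against KO. Each group was also set against the Ctrl libraries, which both share, and 7 genes (0.0439%) were called higher in KO and 53 (0.332%) in ALKKO. Of the 21 genes that rose with all 6 libraries above Ctrl, 7 were called in KO and 21 in ALKKO. Noct (edgeR adjusted p = 0.277) and Gramd1c (edgeR adjusted p = 0.172) were not called in KO against Ctrl.

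**Figure D3:**
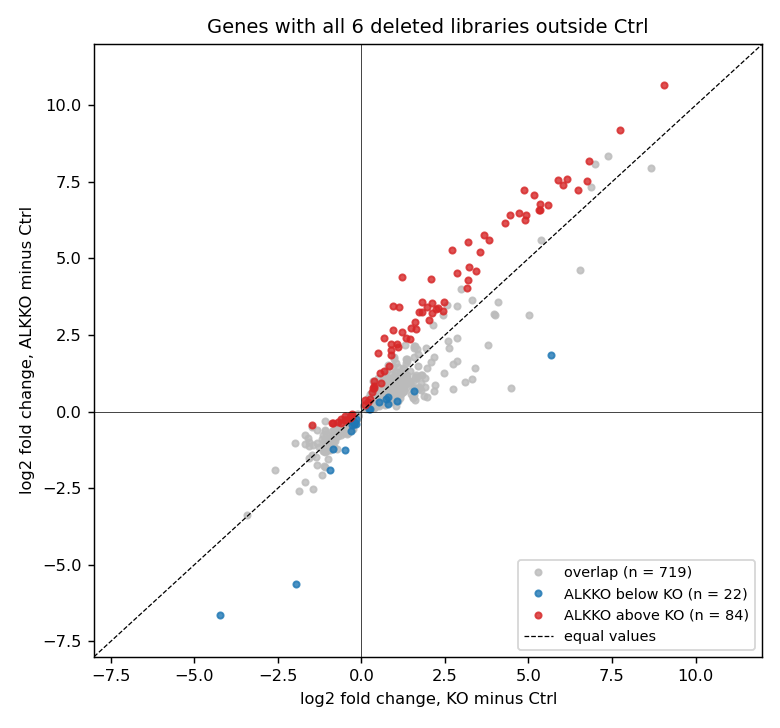
log2 fold change against Ctrl in KO (horizontal) and ALKKO (vertical) for the 825 genes with all 6 deleted libraries outside Ctrl, 1 point per gene, with the dashed line marking equal values. Both axes share the Ctrl libraries and the choice of genes fixes the sign of their mean. Genes with ALKKO above KO (84) outnumber those below (22).

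Among the 381 genes below Ctrl, Klra9 was the one that edgeR called at more than 2-fold, Dnmt1 falling by less, and DESeq2 called 12 of the genes below Ctrl. Klra9 encodes a Ly49 receptor of natural killer cells. It was at 6.26, 3.69 and 4.58 CPM in Ctrl, 0.214, 0.349 and 0.205 CPM in KO and 0.123, 0 and 0 CPM in ALKKO. The groups did not overlap, and the log2 fold change was -5.43 ± 0.55 (SE, edgeR adjusted p = 0.0144). Ly49 genes are near-identical paralogs that vary between mouse strains, so the assignment of their reads is uncertain. The cytotoxic and NK-type list did not follow Klra9 in one direction: of 25 members tested, 1 rose (Gzma) and 1 fell. Cd160 and Ncr1 lay above Ctrl, Klra1 and Klra9 below, and the median log2 fold change was 0.07. By share, 4% were called higher, 8% lay above and 8% below, against 0.144%, 2.78% and 2.39% of all genes. In edgeR 28% had an unadjusted p under 0.05, against 8.32% of all genes. Styk1, a kinase-like receptor also known from natural killer cells and named after its values were seen, had 4.92, 4.18 and 4.63 CPM in Ctrl, 0.429, 0.786 and 1.09 CPM in KO and 0.613, 2.06 and 0.969 CPM in ALKKO, without passing the test (edgeR adjusted p = 0.143).

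The other genes below Ctrl were mostly well-expressed genes with small differences, their Ctrl CPM having a median of 63.2. Chosen after their values were seen, Rbm3, a cold-inducible RNA-binding protein, was at 137, 147 and 122.6 CPM in Ctrl, 95.3, 87.2 and 81.4 CPM in KO and 89.3, 96.9 and 87.5 CPM in ALKKO. The log2 fold change was -0.60 ± 0.09 (SE, edgeR adjusted p = 0.0598). Clk1, a kinase that phosphorylates splicing factors, had 360.4 to 432 CPM in Ctrl, against 224 to 280.2 CPM in the deleted libraries (log2 fold change -0.62 ± 0.10, edgeR adjusted p = 0.0876). Its relative Clk4 had 146 to 181 CPM in Ctrl, against 103 to 129 CPM in the deleted libraries, and Srsf7, a splicing factor, had 359.7 to 473 CPM and 297 to 326 CPM.

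Xist, the noncoding RNA that coats the inactive X chromosome of females, is repressed by methylation on the single X of males. It was at 1.44, 4.23 and 2.62 CPM in the male Ctrl libraries. The 5 male deleted libraries had 48.0, 27.3, 88.1, 102 and 16.3 CPM, and the female KO2 had 701 CPM. Every male deleted library was above Ctrl, while the Y-linked Ddx3y stayed at 146 to 196 CPM in those males (180.2 to 207 CPM in Ctrl) and at 0.437 CPM in KO2. With this spread the log2 fold change of 5.59 ± 1.38 (SE) did not pass the test (edgeR adjusted p = 0.382), nor did the value of 4.19 without KO2 (edgeR adjusted p = 0.182). Tsix overlaps Xist on the other strand, and the counting is not stated to use strand. Genes on the X chromosome were 22 of the 444 above Ctrl (4.95%), 8 of the 381 below (2.1%) and 3.08% of all genes tested.

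**Figure D4:**
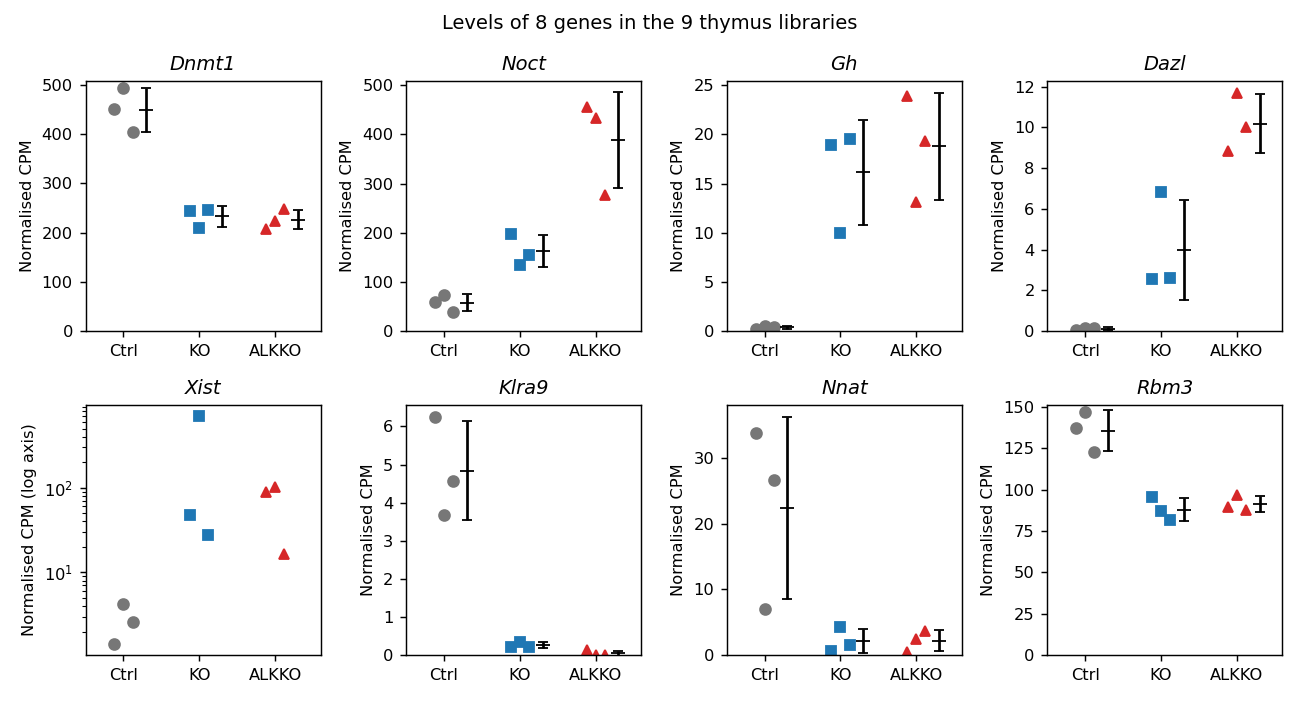
Normalised CPM of Dnmt1, Noct, Gh, Dazl, Xist, Klra9, Nnat and Rbm3 in the 3 libraries of each group, with the mean and SD beside the points except for Xist, which is on a log axis and includes the female KO2 at 701 CPM. For each of the 8 genes the 6 deleted libraries lie on one side of the 3 Ctrl libraries.

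Of 33 imprinted genes tested, 0 were called in edgeR (4 at an unadjusted p under 0.05), Ddc lay above Ctrl and Nnat below, with a median log2 fold change of 0.11. By share, 12.1% had an unadjusted p under 0.05, 3.03% lay above and 3.03% below, against 8.32%, 2.78% and 2.39% of all genes. Nnat, neuronatin, a paternally expressed proteolipid, was at 33.8, 6.94 and 26.7 CPM in Ctrl, 0.643, 4.19 and 1.57 CPM in KO and 0.49, 2.42 and 3.62 CPM in ALKKO. The Ctrl spread was wide, and the log2 fold change of -3.39 ± 0.72 (SE) did not pass the edgeR test (adjusted p = 0.255), but at the same fold change Nnat passed in DESeq2 (adjusted p = 0.000918). Of 21 genes of the DNA methylation machinery, Dnmt1 alone had an adjusted p under 0.05, and 4 had an unadjusted p under 0.05. By share, 19.0% had an unadjusted p under 0.05, 4.76% lay above and 4.76% below, against 8.32%, 2.78% and 2.39% of all genes. Positive log2 fold changes were seen for 7 of the 21, and for 8876 of all 15956 genes tested. Uhrf1 was at 253 to 299 CPM in Ctrl, against 128 to 277 CPM in the deleted libraries, and Dnmt3a, a de novo methyltransferase, was at 185 to 194 CPM and 151 to 212 CPM. Zbtb38, which binds methylated DNA, lay above Ctrl, at 30.8 to 39.0 CPM against 48.5 to 76.4 CPM (edgeR adjusted p = 0.284).

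Of 38 interferon-stimulated genes tested, 0 were called in edgeR and 0 lay outside Ctrl on either side. In all, 1 of the 38 (2.63%) had an unadjusted p under 0.05, against 8.32% of all genes. Over all genes tested, 8876 of 15956 log2 fold changes were positive, and among these interferon-stimulated genes 36 of 38 were, with a median of 0.42. Their summed CPM was 4689 in KO2, 1535 and 1749 in the other KO libraries and 1958 to 2420 in ALKKO, against 1726 to 1965 in Ctrl. Of 25 proliferation genes, 0 were called in edgeR (3 at an unadjusted p under 0.05), 0 had a positive log2 fold change, and Cdc6 and Ccne2 lay below Ctrl. These shares, 12% at an unadjusted p under 0.05 and 8% below, compare with 8.32% and 2.39% of all genes. Their sum was 2372 CPM in KO2 and 4559 to 5299 CPM in the other deleted libraries, against 4815 to 5873 CPM in Ctrl. Of 20 p53 targets, 0 were called in edgeR (2 at an unadjusted p under 0.05), and Btg2, an antiproliferative gene, lay below Ctrl at 437 to 742 CPM against 788 to 864 CPM. By share, 10% had an unadjusted p under 0.05 and 5% lay below, against 8.32% and 2.39% of all genes.

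Marker lists of cell types other than cytotoxic cells gave 0 calls in edgeR. An unadjusted p under 0.05 was found for 4 macrophage and granulocyte genes, 2 endothelial genes and 1 gene each of the double-negative, dendritic cell, adipocyte and muscle lists. It was found for 0 B cell, double-positive, single-positive, thymic epithelial, fibroblast or erythroid genes. For macrophages and granulocytes, all 13 tested members had positive log2 fold changes, where 8876 of all 15956 genes tested did. Their median was 0.75, and Csf1r, Mrc1 and Adgre1 lay above Ctrl in all 6 libraries. They are 23.1% of the members, against 2.78% of all genes, and 30.8% had an unadjusted p under 0.05, against 8.32%. Mrc1, the mannose receptor, had 25.3 to 27.4 CPM in Ctrl, against 33.0 to 73.3 CPM in the deleted libraries. All 11 B cell markers were positive as well, with a median of 1.74, but 0 lay outside Ctrl in all 6. Double-positive thymocyte markers were negative for 13 of 13 (median -0.28, Rag2 below Ctrl) and thymic epithelial markers for all but 1 of 14 (median -0.46, Ccl25 below Ctrl). Sums of these lists in KO2 are given above. Erythroid markers summed to 262, 2219 and 1696 CPM in KO and 159, 1909.8 and 1938 CPM in ALKKO, against 384 to 594 CPM in Ctrl. Endothelial markers had a median of 0.83 with Vwf above Ctrl, dendritic cell markers one of 0.54 with Itgax above, and fibroblast markers one of 0.58 with 0 members outside. The part of these cell types in the members' values was not tested.

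In the ALK tumors, which keep Dnmt1 and were added to this description after the values were seen, most of the risers were near 0. Of the 21 genes that rose with all 6 libraries above Ctrl, 17 stayed under 1 CPM in each of the 3 tumors, and for 20 every deleted library was above every tumor. The other 4 were Noct (35.0 to 47.8 CPM), Gramd1c (5.58 to 13.5 CPM), Lalba (6.02 CPM in 1 tumor) and Clvs1 (2.62 CPM in 1 tumor). These genes were chosen for their high values in the deleted libraries, so their order against the tumors was not tested.

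The calls rest on few libraries. Without Ctrl2, 0 genes were called in edgeR, where 515 had an unadjusted p under 0.05, without Ctrl1 5 were called and without Ctrl3 3. On the deleted side, 6 were called without KO1, 6 without KO3, 7 without ALKKO1, 5 without ALKKO2 and 13 without ALKKO3, whereas 30 were called without KO2. Without Ctrl3, 1277 genes lay above and 1707 below the remaining Ctrl libraries. Without KO2, the library that stood apart, 664 lay above and 645 below, and without KO3, which held the muscle genes, 728 and 522.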

How the data were processed

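RNA of 12 mouse samples had been sequenced as stranded poly(A) libraries with 50-nucleotide single-end reads. Per the labels and the study's methods, the authors trimmed reads with Trim Galore, aligned them to mm10 with STAR and counted them per gene with HTSeq, and the submitters' processing notes also name Picard 2.19.2. The annotation release and the strand setting are not given in the sources used here. The deposited files hold raw counts, 1 file per sample. Lines for reads without a gene were left out (6.91 to 8.32% of uniquely placed reads in the 9 thymus libraries).

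Of the 50600 gene IDs, 50376 were matched to GENCODE M21. Genes were kept with edgeR's filterByExpr, which left 15956, and scaled by TMM. edgeR 4.0.16 (R 4.3.3, limma 3.58.1) quasi-likelihood fits with 1 term per group gave the contrast of the mean of KO and ALKKO against Ctrl, with Benjamini-Hochberg adjustment over all genes, and genes were called where the adjusted p was under 0.05 and the change over 2-fold. Samples were grouped by their labels, and nothing else states how replicates were raised, so p-values measure the spread between these mice. A gene lay outside where all 6 deleted libraries left the Ctrl range. Sums over a list took every listed gene, tested or not, in CPM on total counts without TMM. Counting intervals are 95% Clopper-Pearson and, like the limit of 3 counts per library, cover counting error only. In these libraries 3 counts correspond to 0.159 to 0.236 CPM. Named genes were Dnmt1 and Alk, the called genes outside the Ctrl range with at least 1 CPM on either side (25 largest rises, 10 largest falls), called or outside members of the lists other than markers, the 2 highest members of lists without a call, the calls of ALKKO against KO, and the genes nearest the edges of the rule. Others were chosen after their values were seen, called genes under 1 CPM and marker genes included. Members, lists and tests were chosen with earlier results of these data known. Scripts were tested on simulated data. Alternatives were DESeq2 1.42.0, other filters, scalings, covariates and libraries, and each library left out. Upstream sequences came from RefSeq (GRCm38.p6). Promoters not in that table were not used here.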

Additional observations from a re-analysis of the deposited data

Results flagged for a closer look

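Within the 6 deleted libraries, 19 of 73 named genes had 1 library whose gap to the next, relative to the range of all 6, passed Dixon's 95% limit, which chance passes in about 1 of 20 groups. In 16 of the 19 that library was KO2. KO2 was the highest for Xist (701 CPM, the next library 102 CPM), Ighd (628 CPM), Lyz2 (1714 CPM), Parp14 (408 CPM), Ifi27 (359 CPM), Plvap (99.7 CPM) and Ncr1 (9.34 CPM). KO2 was the lowest for Trp53inp1 (647 CPM), Top2a (394 CPM), Mki67 (420.3 CPM), Tcf7 (78.2 CPM), Dntt (497 CPM), Ccr9 (313 CPM), Ccl25 (54.6 CPM), Thy1 (765 CPM) and Ddx3y (0.437 CPM). KO3 stood apart for the heart muscle genes Myh6 (1491 CPM, the next library 7.39 CPM) and Tnnt2 (687 CPM, the next library 6.18 CPM). ALKKO2 was highest for Gm47760 (2.18 CPM, the next library 0.981 CPM), a gene that rose in the pooled comparison.

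The 2 groups of the deleted side differed by the test of ALKKO against KO in 4 genes. The log2 fold changes were 7.86 for Alk (edgeR adjusted p = 0.000745), 2.66 for Gzma (edgeR adjusted p = 0.00245), 4.54 for Lrrc66 (edgeR adjusted p = 0.0365) and 3.003 for 5830411N06Rik (edgeR adjusted p = 0.04). All 3 ALKKO libraries were above all 3 KO libraries for each of these genes.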

How the results depend on the processing

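Of the 22 named genes with an adjusted p under 0.05, DESeq2, no low-count filter and DESeq2 size factors in edgeR kept all 22, sex as a covariate 21, thinning to the smallest library (chosen after seeing the data) 18, age as a covariate 11, all 12 libraries 9 and 2 groups with no transgene term 4, and none reversed. Calls of the pooled comparison, calls outside the Ctrl range and calls of ALKKO against KO (24, 22 and 4 as reported) were 111 (96 higher and 15 lower), 91 and 52 with DESeq2, and 9, 8 and 1 with all 12 libraries. With age as a covariate the first 2 counts were 10 and 9, with no transgene term both were 3, and with sex as a covariate the third was 12. Nothing states whether the replicate numbers pair the mice, and correlations between libraries did not settle it. Of the same-number pairs, 5 of 9 had a correlation over 0.1 (range -0.11 to 0.43), and different-number pairs ran from -0.46 to 0.21. With the number as a replicate block the 3 counts were 0, 0 and 1 in edgeR, with 1185 genes at an unadjusted p under 0.05. Leaving out 1 library gave 0 to 30, 0 to 26 and 2 to 12 calls, 473 to 1277 genes above and 464 to 1707 below Ctrl. Fits with fewer libraries have fewer residual degrees of freedom. A margin of 2-fold left 49 above and 2 below, and no low-count filter gave 583 below. Adjusted p values of Dnmt1 ran from 1.88e-14 to 0.179 over 19 settings. Some uncalled genes changed sign. With sex as a covariate the log2 fold changes were -0.050 for Gnas, 0.020 for Trp53inp1, 0.011 for Top2a, 0.11 for Mki67, 0.15 for Tcf7, 0.15 for Dntt, -0.60 for Ighd, -0.28 for Fabp4 and -0.049 for Pck1. With age they were -0.26 for Fabp4 and -0.15 for Pck1, and with the replicate block -0.74 for Fabp4 and -1.06 for Pck1. Among fits leaving out 1 library, the ranges were Dcn -0.0043 to 0.84, Dntt -0.24 to 0.14, Fabp4 -0.58 to 0.83, Gnas -0.061 to 0.20, Ighd -0.61 to 2.31, Mki67 -0.13 to 0.10, Myh6 -1.06 to 4.49, Pck1 -0.72 to 1.07, Tcf7 -0.20 to 0.14, Tnnt2 -0.61 to 3.06 and Trp53inp1 -0.26 to 0.0084. The cause of these changes was not tested. Genes under about 0.2 CPM lie within the limit of 3 counts.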

Other observations

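Of the 36 genes that lay below Ctrl with more than 2-fold lower values, 4 lie together on chromosome 6 (mm10), between the start of Klra9 at 130178675 and the end of Styk1 at 131353597. A window of 3 Mb around them, chosen after the values were seen, holds 29 of the genes tested, of which 13.8% were such falls, against 0.226% of all genes tested. They are Klra9, Klra13-ps, Klra1 and Styk1. Klra13-ps, a pseudogene of the Ly49 family, was at 3.85, 4.01 and 2.40 CPM in Ctrl, 0.214, 2.10 and 0.41 CPM in KO and 0.184, 0 and 0 CPM in ALKKO (edgeR adjusted p = 0.269). Klra1 was at 0.927 to 2.55 CPM in Ctrl, against 0.182 to 0.873 CPM in the deleted libraries (edgeR adjusted p = 0.539). One gene of the window lay above Ctrl. Strain genotypes at this locus were not measured here.

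Among the ALK tumors, all labelled male, Xist was at 1.95, 1.13 and 140.0 CPM, and Ddx3y at 93.3, 167 and 142 CPM.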
